A study of Mus musculus with 48 samples.

Results

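The cornified envelope genes described here are the late cornified envelope genes (Lce), the small proline-rich genes (Sprr), loricrin (Lor), involucrin (Ivl) and 5 fused S100-type genes, filaggrin (Flg), filaggrin 2 (Flg2), hornerin (Hrnr), repetin (Rptn) and cornulin (Crnn). They were chosen by name alone: every entry called Lce or Sprr followed by a digit, plus the 7 single genes. This gave 51 of the 46983 gene entries in the expression tables, under 45 symbols: 14 Lce1, 6 Lce3, 1 Lce6, 2 Sprr1, 13 Sprr2, 1 Sprr3, 1 Sprr4, Lor, Ivl and 11 fused S100 entries, 7 of which carry the name Flg. RNA was measured in whole skin of C57BL/6 mice, with no engineered allele or treatment named in the labels. Chin, ventral and dorsal skin were each sampled at 6 stages of the hair cycle, competent telogen (the first rest), early, mid and late anagen (growth), catagen (regression) and refractory telogen (the second rest), giving 43 libraries in 18 groups of 2 or 3. A second table held 2 libraries of ear skin at telogen and 3 of the cartilage/muscle complex beneath it, beside the same 2 dorsal competent telogen libraries. The labels give no age or sex and do not say whether replicates came from separate mice, so each p-value below measures the spread between libraries, which may be technical.

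The cornified envelope is the protein shell that replaces the plasma membrane of a dying keratinocyte. Involucrin is laid down early as a scaffold, loricrin and the Sprr proteins are then cross-linked onto it by transglutaminases, and Lce proteins are added late. Filaggrin and its relatives bundle keratin filaments and fill the matrix of the cornified cell. The genes sit side by side in the epidermal differentiation complex, and cornification takes place both in the epidermis between hairs and in the inner root sheath, the cylinder of cells that guides the growing hair and is lost when growth ends.

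In the GENCODE vM21 annotation of GRCm38, 45 of the 51 entries were placed, all on chromosome 3 between 92080271 and 93399442, a span of 1320 kb, and 43 of them are protein coding. Lor opens the cluster at chr3:92080271-92083142 on the minus strand, followed by the Sprr2 genes, Sprr1b, Sprr3, Sprr1a at chr3:92483952-92485895, Sprr4, Ivl at chr3:92570902-92573735, Lce6a, 13 Lce1 genes, the 6 Lce3 genes, Lce1m at chr3:93017810-93019060, Crnn at chr3:93144787-93149819 and the filaggrin-like genes. The 6 entries without a position were all called Flg. RefSeq promoter sequences of GRCm38.p6 were matched to 41 members. Those of 6 members that follow the different courses described below are shown for the 150 bases before the transcription start, read 5′ to 3′ on the gene's strand, with capitals for TATAAA (the TATA box), TGANTCA (the motif of AP-1, the Jun and Fos factors), ATAAAAG and CCACCC (a motif of the Klf factors), each on either strand.
Lor, chr3:92083143-92083292, minus strand: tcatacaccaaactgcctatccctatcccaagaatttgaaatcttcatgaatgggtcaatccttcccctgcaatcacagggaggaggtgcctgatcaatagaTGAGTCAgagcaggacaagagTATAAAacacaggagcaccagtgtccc
Lce1m, chr3:93019062-93019211, minus strand: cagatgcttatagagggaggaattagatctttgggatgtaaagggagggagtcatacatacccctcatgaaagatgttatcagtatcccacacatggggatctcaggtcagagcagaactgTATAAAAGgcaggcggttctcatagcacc
Lce3c, chr3:92944336-92944485, plus strand: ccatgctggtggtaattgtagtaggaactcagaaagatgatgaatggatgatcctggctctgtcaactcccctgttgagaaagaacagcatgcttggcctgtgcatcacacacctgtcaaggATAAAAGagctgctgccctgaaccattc
Sprr1a, chr3:92485882-92486031, minus strand: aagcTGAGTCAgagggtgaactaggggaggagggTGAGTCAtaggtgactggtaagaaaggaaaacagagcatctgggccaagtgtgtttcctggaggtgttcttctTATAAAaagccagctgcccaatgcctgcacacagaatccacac
Ivl, chr3:92573736-92573885, minus strand: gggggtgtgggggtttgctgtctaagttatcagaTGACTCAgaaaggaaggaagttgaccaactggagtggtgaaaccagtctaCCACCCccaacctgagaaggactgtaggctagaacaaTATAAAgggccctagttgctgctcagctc
Crnn, chr3:93144639-93144788, plus strand: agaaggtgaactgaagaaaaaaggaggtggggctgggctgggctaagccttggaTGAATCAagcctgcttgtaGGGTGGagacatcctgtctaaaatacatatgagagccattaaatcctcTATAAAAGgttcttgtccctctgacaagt

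Over the whole promoter window, 250 bases before to 50 after the start, TATAAA lay in 48.8% of the 41 member promoters and in 13.6% of all 32851. TGANTCA lay in 36.6% of member promoters and 7.81% of all. It was found in both Sprr1 promoters, 7 of 10 Sprr2 promoters, 4 of 5 fused S100 promoters, Lor and Ivl, and in none of the 13 Lce1 or 6 Lce3 promoters. ATAAAAG, which overlaps the TATA box in the string TATAAAAG and was searched only after the sequences were seen, lay in 10 of 13 Lce1 and 5 of 6 Lce3 promoters but in no Sprr1 or Sprr2 promoter, against 5.42% of all promoters. The Klf motif CCACCC (24.4% against 31.5%) and the grainyhead motif AACCNGTT (2.44% against 2.09%) were about as frequent as in all promoters. These matches describe letters in a window and show nothing about binding.

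Sequencing depth, estimated from the size of the steps between low FPKM values (fragments per kilobase of transcript and scaled to the library total), was 6850313 to 24836004 fragments per skin library. Some libraries went against their labels. The 2 libraries labelled chin late anagen differed from the 2 labelled dorsal competent telogen by a median absolute log2 difference of only 0.0936 to 0.109 per gene (4 pairs), where replicates of a group differed by 0.0757 to 0.376 and other pairs of groups by 0.142 to 0.744. The chin late anagen libraries also held the trunk gene Hoxa7 at 6.6 and 7.16 FPKM, against at most 2.33 in the other chin libraries. For the main results that rest on these 2 groups, called the doubtful groups here, values without them are therefore given as well. The other gene lists and the interaction of domain and stage were computed only with them. Inner root sheath genes (Krt71 and 6 others), which mark growing follicles, were high in libraries labelled telogen too: their summed level was 11420 to 12440 FPKM at competent telogen of chin skin, 8463 to 9844 of ventral and 23320 to 23650 of dorsal skin. At refractory telogen it was 5856 to 8797 in chin, 17820 to 18770 in ventral and 16200 to 16820 in dorsal skin, against 11830 to 13110 at early anagen of chin and 4491 to 8303 of ventral and dorsal skin, and 16690 to 28130 from mid anagen to catagen. One ventral catagen library is labelled ventral in its title but ear in its location field. The ear keratin Krt2 stood at 0.23 FPKM in it, close to the 0.37 of its replicate.

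Levels spanned a wide range. Of the 51 members, 14 averaged at least 100 FPKM over the skin libraries, 16 averaged 5 to 100 and 21 less than 5. The small proline-rich gene Sprr1a was by far the most abundant at 4514 FPKM, followed by Lor at 783, Lce1m at 477 and Crnn at 343. The 21 low members were 11 of the 13 Sprr2, 4 of the 6 Lce3, 5 of the 11 fused S100 entries and Sprr3, which is at home in the lining of the mouth and gullet and averaged 0.0123 FPKM. All 14 Lce1 genes were above 5 FPKM. A filter of 0.5 FPKM in at least 2 libraries left 49 members for testing in skin, without Sprr3 and the pseudogene Sprr2c-ps. Sprr2a1, Sprr2a2 and Sprr2a3 share 96.3%, 96.5% and 61.1% of their 50-base words with other genes, so their separate levels are uncertain. The share was 0 to 27.1% for Lce1, 12.1 to 49.3% for Lce3 genes and 0 for Lor, Sprr1a, Sprr2h and Crnn.

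**Figure D1:**
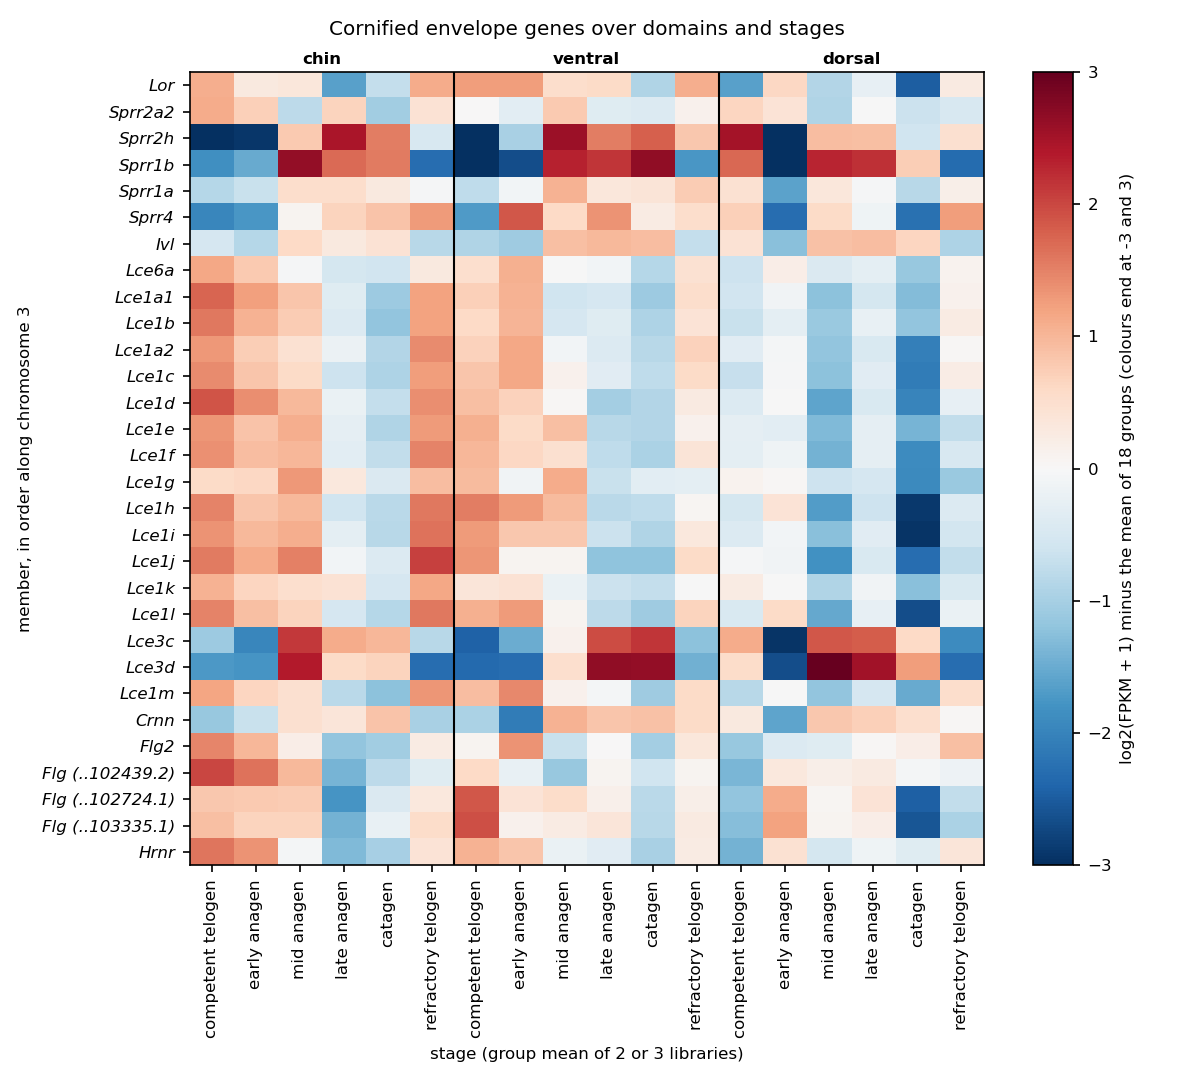
Each cell gives a group's mean log2(FPKM + 1) minus the mean of the 18 groups, for the 30 members averaging at least 5 FPKM (rows, in order along chromosome 3) over 6 stages of 3 skin domains (columns). Lor, the Lce1 genes, Flg2 and Hrnr are red mainly in chin and ventral telogen and early anagen. Sprr2h, Sprr1b, Lce3c, Lce3d, Ivl and Crnn are blue in most of those columns and red from mid anagen to catagen, except Sprr2h at dorsal catagen.

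Most of the well expressed members leaned to 1 of 2 largely opposite courses over the 18 groups, by their closeness to 2 marker lists described below. All Lce1 genes were on one side and the Sprr1 and Lce3 genes on the other, while the Sprr2 and fused S100 members were found on both. Sprr1a was close to unrelated to loricrin rather than opposite, with a Pearson's r of -0.152 over the group means. Lce1g was only weakly on its side, with r of 0.201 with the suprabasal keratins and -0.284 with the inner root sheath genes. Loricrin, the major envelope protein of the epidermis, was high at rest and in early anagen and low at catagen. In chin skin it stood at 1504 and 1078 FPKM at competent telogen, 920 and 565 at early anagen, 598 and 932 in mid anagen, 220 and 167 in the libraries labelled late anagen, 318, 392 and 395 in catagen, and it returned to 1707, 904 and 1320 at refractory telogen. In ventral skin the values were 1323, 1761 and 1252, then 1419, 1701 and 1182, then 867 and 857, then 1008, 921 and 756, then 473 and 169, and at refractory telogen 1265 and 1300. In dorsal skin they were 200 and 189, then 951 and 894, then 446, 325 and 206, then 483, 504 and 533, then 103 and 111.2, and at refractory telogen 483 and 974. Catagen was below refractory telogen in every domain without overlap, dorsal catagen was the lowest group of all, and dorsal competent telogen stood with chin late anagen rather than with the other competent telogen groups. Of the 17 pairs of neighbours in the order of group means, 14 overlapped in their libraries.

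The Lce1 genes, whose products are among the last to be cross-linked, ran with loricrin. Lce1m, the most abundant, held 998 and 758 FPKM in chin competent telogen, then 735 and 479, 313 and 769, and 231 and 205 through the 3 anagen stages, 137, 178 and 173 in catagen, and 981, 1054 and 837 in refractory telogen. Its ventral values were 696, 813 and 677, then 955, 1112 and 1052, then 489 and 348, then 389, 395 and 327, then 214 and 155, and at refractory telogen 386 and 768. In dorsal skin they were 224 and 211, then 365 and 395, then 165, 198 and 143, then 258, 274 and 277, then 127 and 140, and at refractory telogen 536 and 573. Summed over the 14 genes, Lce1 RNA averaged 2926 FPKM in chin competent telogen and 321 in dorsal catagen. The highest group was a chin telogen for 12 of the 14 genes (refractory for 7, competent for 5), and the lowest was dorsal catagen for 13. Lce6a, the lone member of its branch, stood at 41.1 and 37.7 FPKM in chin competent telogen and at 33.3 to 39.5 in ventral early anagen, its highest groups, and at 5.76 and 8.51 in dorsal catagen.

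The other course belonged to genes that were high from mid anagen to catagen and, with exceptions given below, low at rest and in early anagen. Lce3d went from a group mean of 0.35 to 66.29 FPKM, too near 0 at its lowest for a fold. Of the well expressed members with a fold, Sprr2h, a small proline-rich gene, changed the most, by 160 times between group means, against 153 for Sprr1b. Its chin values were 6.11 and 6.96 FPKM in competent telogen, then 8.73 and 7.8, 127 and 113, and 375 and 390 through the anagen stages, 216, 194 and 199 in catagen, and 40.9, 59.5 and 46.1 in refractory telogen. In ventral skin it stood at 5.43, 3.5 and 2.69, then 33.6, 31.8 and 38.3, then 446 and 380, then 208, 197 and 205, then 222 and 262, and at refractory telogen 125 and 119. In dorsal skin it stood at 393 and 392, then 3.27 and 1.88, then 124, 119 and 151, then 129, 135 and 127, then 43.1 and 48.1, and at refractory telogen 96.4 and 97.7. Only 6 of its 17 neighbouring pairs of groups overlapped. The dorsal competent telogen libraries, at 393 and 392, again stood with the chin late anagen libraries and far above the other competent telogen libraries, at 2.69 to 6.96. Its dorsal refractory telogen libraries lay above its dorsal catagen libraries.

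Involucrin, the early scaffold, and cornulin shared this course with less contrast. Ivl averaged 72.3 to 107 FPKM in chin and ventral competent telogen, early anagen and refractory telogen, and 187 to 299 in mid anagen, late anagen and catagen of the 3 domains. The dorsal early anagen libraries held 62.6 and 63.5 FPKM and the dorsal refractory libraries 77.95 and 80.75, but the dorsal competent telogen libraries 207 and 200. Crnn ranged from 64.4 to 67.7 FPKM in the 3 ventral early anagen libraries to 608 and 591 at ventral mid anagen, and stood at 452 and 417 in ventral refractory telogen. Lce3c, the most abundant of the Lce3 genes (a branch known from wounded and psoriatic epidermis), stood at 4.43 and 4.95 FPKM in dorsal early anagen and at 208 and 173 in ventral catagen. Sprr1b, close kin of Sprr1a, went from 2.16 and 2.82 FPKM in dorsal early anagen to 442 and 318 in ventral catagen. Sprr1a itself moved less, from 1446 and 1289 FPKM in dorsal early anagen to 7897 and 9115 in ventral mid anagen, and ventral refractory telogen, at 8705 and 5464, overlapped that highest group. The dorsal catagen libraries of Sprr1a, at 2240 and 2454 FPKM, lay below its dorsal refractory telogen libraries, at 4542 and 4879.

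**Figure D2:**
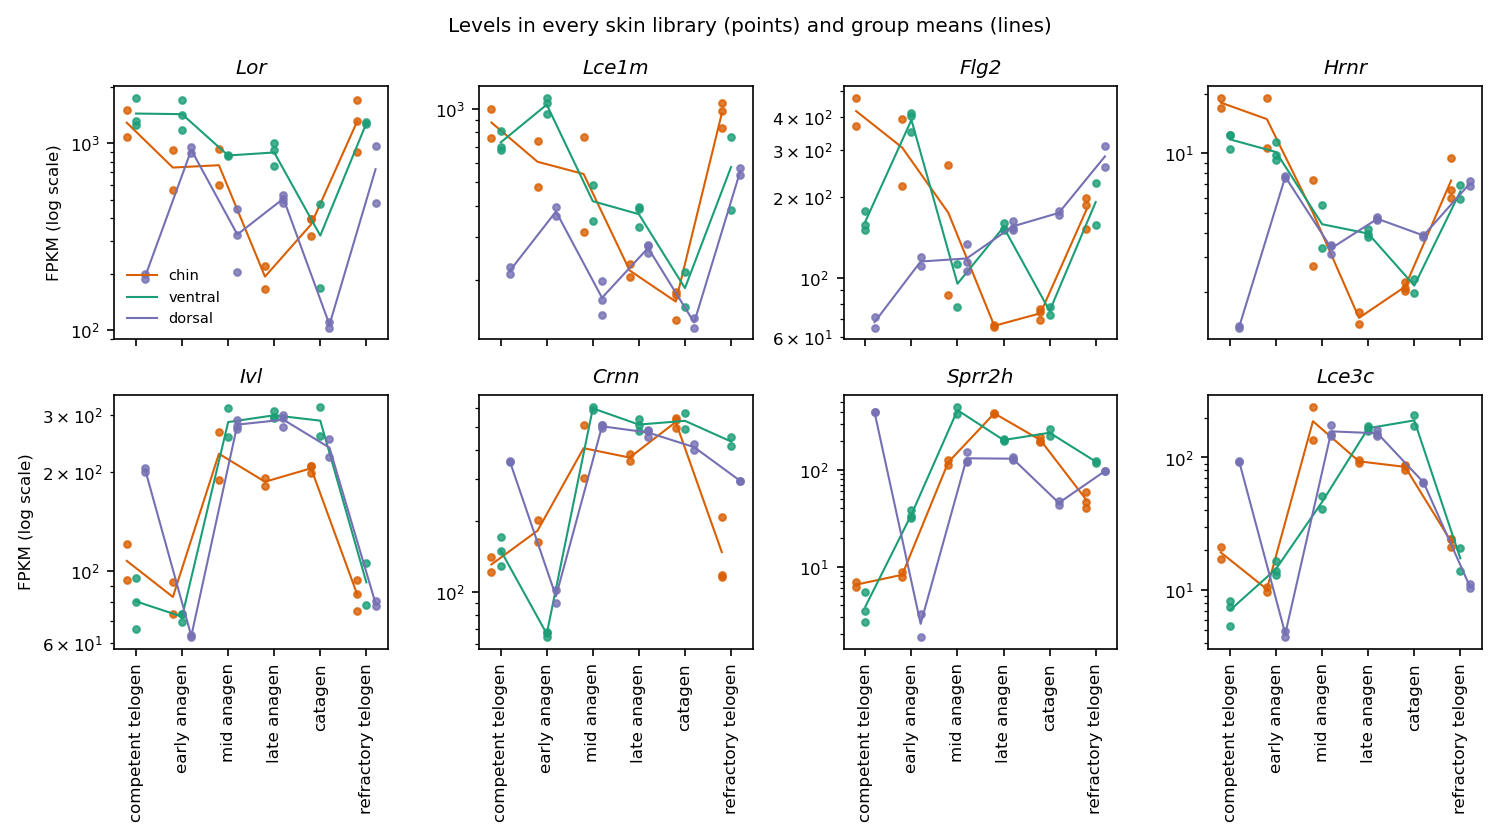
FPKM of 8 members (log axes) in each skin library (points) over the 6 stages, with lines through the group means of chin (orange), ventral (green) and dorsal (purple) skin. Lor, Lce1m, Flg2 and Hrnr fall toward late anagen and catagen in chin skin, whereas Ivl, Crnn, Sprr2h and Lce3c rise to mid anagen, and the dorsal competent telogen points lie apart from the other competent telogen points in all 8 panels.

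The correlation of each member's 18 group means with the mean of 2 marker lists describes this division. With the suprabasal keratins (Krt1, Krt10, Krt2 and Krt77, made by differentiating epidermis), Pearson's r was 0.784 for Lor, 0.943 for Hrnr, 0.901 for Flg2, 0.862 for Lce6a and 0.201 to 0.86 for the 14 Lce1 genes. With the inner root sheath genes, r was 0.931 for Crnn, 0.843 for Sprr1b, 0.817 for Ivl, 0.792 for Lce3d, 0.768 for Lce3c, 0.711 for Sprr2h and 0.553 for Sprr1a. All 14 Lce1 genes lay closer to the keratins and both Lce3 genes above 5 FPKM closer to the inner root sheath, although the block of Lce3 genes lies between Lce1l and Lce1m on the chromosome. In all, 22 of the 30 members above 5 FPKM lay closer to the keratins. Leaving out the 2 doubtful groups gave 0.699 for Lor and 0.87 for Lce1m with the keratins, and 0.946 for Crnn and 0.83 for Sprr1b with the inner root sheath. The points share libraries and each library's depth, so the values describe these samples only. In bulk skin, fewer cells of a type and less RNA per cell cannot be told apart.

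Taken against 1 keratin of the same library, most of the members compared varied less or more according to their course. Krt10 and Krt71 belong to the marker lists, so these ratios largely restate the correlations above. The log2 ratio of Lor to Krt10 had an SD of 0.656 over the 18 groups, against 1.13 for Lor itself, and that of Crnn to the inner root sheath keratin Krt71 had an SD of 0.55, against 0.972 for Crnn. The opposite pairings widened the spread, to 1.6 for Lor over Krt71 and 1.73 for Crnn over Krt10. Sprr1a did not narrow against Krt71, with an SD of 0.677 against 0.681 for its level. Among 9441 other genes averaging at least 5 FPKM, those most like Lor over the 18 groups were Pnrc1 (r = 0.952), Tmem125 (0.948), S1pr5 (0.948), Fam89a (0.945) and Itm2b (0.942). Those most like Sprr1a were Gm11937 (0.96), Dusp14 (0.957), Gm11938 (0.951), the hair keratin-associated gene Krtap2-4 (0.949) and Ppif (0.949).

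**Figure D3:**
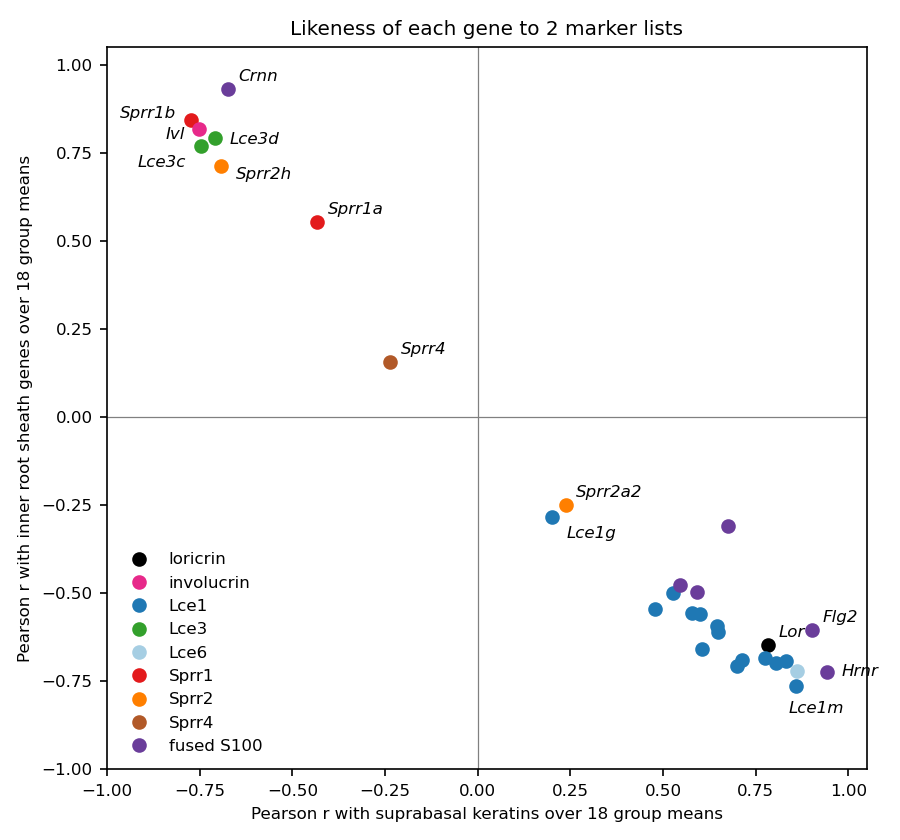
Pearson r of the 30 members averaging at least 5 FPKM with the suprabasal keratins (x axis) and with the inner root sheath genes (y axis), each over 18 group means and coloured by family. The Lce1 genes, Lce6a, Lor and 5 of the 6 fused S100 entries lie at the lower right, Crnn, Ivl, both Sprr1, both Lce3 and Sprr2h at the upper left, and Sprr4 near the middle.

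Sprr4 was close to neither marker list, with an r of only 0.155 with the inner root sheath and -0.236 with the keratins. With Sprr1a, however, its r was 0.79, against 0.906 for Sprr2h, 0.682 for Crnn, 0.651 for Sprr1b, 0.59 for Lce3c and 0.538 for Ivl. Sprr4 is a short proline-rich member that is induced by ultraviolet light in skin. It stood at 25.3 and 32.3 FPKM in chin competent telogen but at 288, 299 and 255 in chin refractory telogen, and at 414, 407 and 441 in ventral early anagen, its highest group, against 17.8 and 27.95 in dorsal early anagen. Most of the filaggrin signal was in 1 of the 7 Flg entries (ENSMUSG00000102439.2, chr3:93273523-93293686), and only this one had a position. Its r was 0.675 with the keratins and -0.309 with the inner root sheath. It was highest in chin competent telogen, at 729 and 694 FPKM, and in chin early anagen, at 652 and 444, and stood at 128, 138 and 143 in chin refractory telogen. In the chin late anagen and dorsal competent telogen libraries it lay between 65.4 and 69.2. The other Flg entries averaged under 10 FPKM, and how fragments were divided among them is uncertain.

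Growth and rest were compared within each domain as the mean of early, mid and late anagen against the mean of both telogens, by limma on log2(FPKM + 1), with fold changes on that scale and Benjamini-Hochberg adjustment over all 21257 genes. In chin skin the 2 courses went in opposite directions. Both Sprr1 genes, 4 of the 6 Lce3 genes, Ivl, Crnn and Sprr2h rose in anagen, and Lor, Lce6a, 13 of the 14 Lce1 genes and 7 of the 11 fused S100 entries, most of them entries of the single gene Flg, fell. Sprr1b rose by 3.00 ± 0.25 (log2, SE, adjusted p = 1.16e-10), Lce3d by 2.38 ± 0.21 (4.51e-10), Sprr2h by 1.97 ± 0.11 (5.62e-14), Lce3c by 1.38 ± 0.12 (2.11e-10), Crnn by 1.12 ± 0.12 (1.08e-08) and Ivl by 0.67 ± 0.10 (2.01e-06). Lor fell by 1.43 ± 0.23 (9.83e-06), Lce1l by 1.28 ± 0.17 (7.26e-07), Lce1m by 1.19 ± 0.18 (3.58e-06) and Hrnr by 1.06 ± 0.15 (1.14e-06). Among the Lce1 genes only Lce1g did not pass, at -0.03 ± 0.13 (0.889). In Lce1l and Lce1a2 every anagen library lay below every telogen library, as in 4.24% of all genes, and no member was separated in the other direction (1.38% of all genes).

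In counts, 11 of the 49 tested members were higher in chin anagen and 25 lower, where 8.99% and 27.5% of all genes were called. Without the chin late anagen libraries the counts were 11 and 14, against 9.92% and 20.1% of all genes, and Lor fell by 0.79 ± 0.26 (adjusted p = 0.0203), 9 of 14 Lce1 genes and 1 fused S100 entry were called lower, and Sprr2h rose by 0.80 ± 0.13 (2.26e-05). Sprr1b then stood at 2.61 ± 0.28, Lce3d at 2.27 ± 0.24, Lce3c at 1.03 ± 0.13, Crnn at 0.97 ± 0.13 and Ivl at 0.52 ± 0.11, all still called, as were Lce1l at -0.89 ± 0.19 and Lce1m at -0.75 ± 0.20, whereas Hrnr, at -0.43 ± 0.17 (0.0516), was not. Scaling by the median of ratios, which moved the median log2 difference of all genes from -0.10 to 0, gave 12 higher and 21 lower, with 12 of 14 Lce1 genes lower. The suprabasal keratins moved alongside (3 of 4 lower, none higher), as did the inner root sheath genes (7 of 7 higher) and the hair shaft genes (8 of 8 higher). Their part in the members' changes was not tested.

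The ventral comparison uses neither doubtful group, but its stage labels went partly against the growth marker Krt71, as given below. In ventral skin Sprr1b, Sprr2h, Lce3c, Lce3d, Ivl and Sprr1a rose again, and fewer members fell than rose. Sprr1b rose by 3.37 ± 0.23 (adjusted p = 6.34e-12), Sprr2h by 2.58 ± 0.11 (4.71e-17), Lce3d by 2.19 ± 0.20 (1.47e-09), Lce3c by 2.04 ± 0.11 (2.93e-14), Sprr4 by 1.88 ± 0.19 (1.12e-08), Ivl by 1.097 ± 0.09 (2.51e-10) and Sprr1a by 0.45 ± 0.10 (0.000909). Lor did not pass, at -0.40 ± 0.22 (0.214), nor did Lce1m, at -0.22 ± 0.17 (0.411). Of the 14 Lce1 genes 4 fell, led by Lce1j at 1.31 ± 0.20 (1.34e-05). Crnn stood at 0.11 ± 0.11 (0.579), with early anagen at 64.4 to 67.7 FPKM and refractory telogen at 417 and 452. No member's anagen libraries lay all above or all below the telogen libraries (0.127% and 1.76% of all genes). Of 49 members 11 were higher and 7 lower, against 5.08% and 16.1% of all genes, while the median-of-ratios scaling and TPM each gave 12 and 5. Hair shaft genes were higher too (7 of 8), and lower were 3 of 4 suprabasal keratins, 5 of 5 adipocyte, 5 of 5 fibroblast and 4 of 4 macrophage genes. The inner root sheath keratin Krt71 averaged 6590 FPKM at refractory telogen, counted as rest, and 1779 at early anagen, counted as growth. It averaged 4025 FPKM at competent telogen and 8790 and 8528 at mid and late anagen. The part of these markers was not tested.

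In dorsal skin the direction of several members turned. Sprr2h fell by 2.32 ± 0.11 (adjusted p = 6.68e-16) in anagen, Sprr4 fell by 1.61 ± 0.20 (2.17e-07) and Sprr1a fell by 0.76 ± 0.10 (6.66e-07), while Lce3d rose by 1.83 ± 0.21 (5.56e-08), Flg (ENSMUSG00000102439.2) by 1.01 ± 0.15 (4.32e-06), Lce3c by 0.63 ± 0.12 (7.24e-05) and Ivl by 0.44 ± 0.10 (0.000513). Sprr1b, at 0.41 ± 0.25 (0.205), and Lor, at 0.52 ± 0.23 (0.0711), did not pass, and none of the 14 Lce1 genes did. Of the low Flg entries 3 rose without overlap of the libraries, ENSMUSG00000103335.1 by 1.64 ± 0.24 (3.03e-06), ENSMUSG00000102724.1 by 1.60 ± 0.25 (6.73e-06) and ENSMUSG00000102829.1 by 1.58 ± 0.22 (1.73e-06), and with Flg (ENSMUSG00000102439.2) they made up the 4 members so separated (13.1% of all genes). Of 49 members 12 were higher and 5 lower, against 29.6% and 9.44% of all genes. Of the marker lists, hair shaft (7 of 8), inner root sheath (4 of 7) and skeletal muscle genes (7 of 7) were lower and sebocyte genes (7 of 8) higher, and their part was not tested.

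These dorsal values rest on the competent telogen libraries. Without them, with refractory telogen alone as rest, Sprr1b rose by 2.44 ± 0.33 (adjusted p = 1.42e-06), Lce3d by 3.25 ± 0.28 (8.45e-10), Lce3c by 2.13 ± 0.16 (3.73e-11) and Ivl by 1.11 ± 0.13 (1.3e-07), as in the other domains. Sprr4 still fell, by 1.88 ± 0.27 (3.11e-06), and the anagen mean of Sprr2h was still lower, by 1.32 ± 0.15 (9.39e-08). For Sprr2h only the early anagen libraries, at 3.27 and 1.88 FPKM, lay below refractory telogen, at 96.4 and 97.7. Its mid and late anagen libraries lay above, at 119 to 151 FPKM. Of the Lce1 genes 3 then fell, Lce1m among them, which fell by 1.103 ± 0.24 (0.000492), and 1 rose, Lce1g by 0.74 ± 0.18 (0.00162). Flg (ENSMUSG00000102439.2) no longer passed, at 0.40 ± 0.20 (0.128). Counts were 11 and 7, against 25.5% and 11.6% of all genes. With all libraries, scaling by the median of ratios moved the median of all genes from 0.10 to -0.01 and the member counts to 9 higher and 12 lower, 5 of them Lce1 genes. TPM scaling gave 13 and 5 and quantile normalization 13 and 8.

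**Figure D4:**
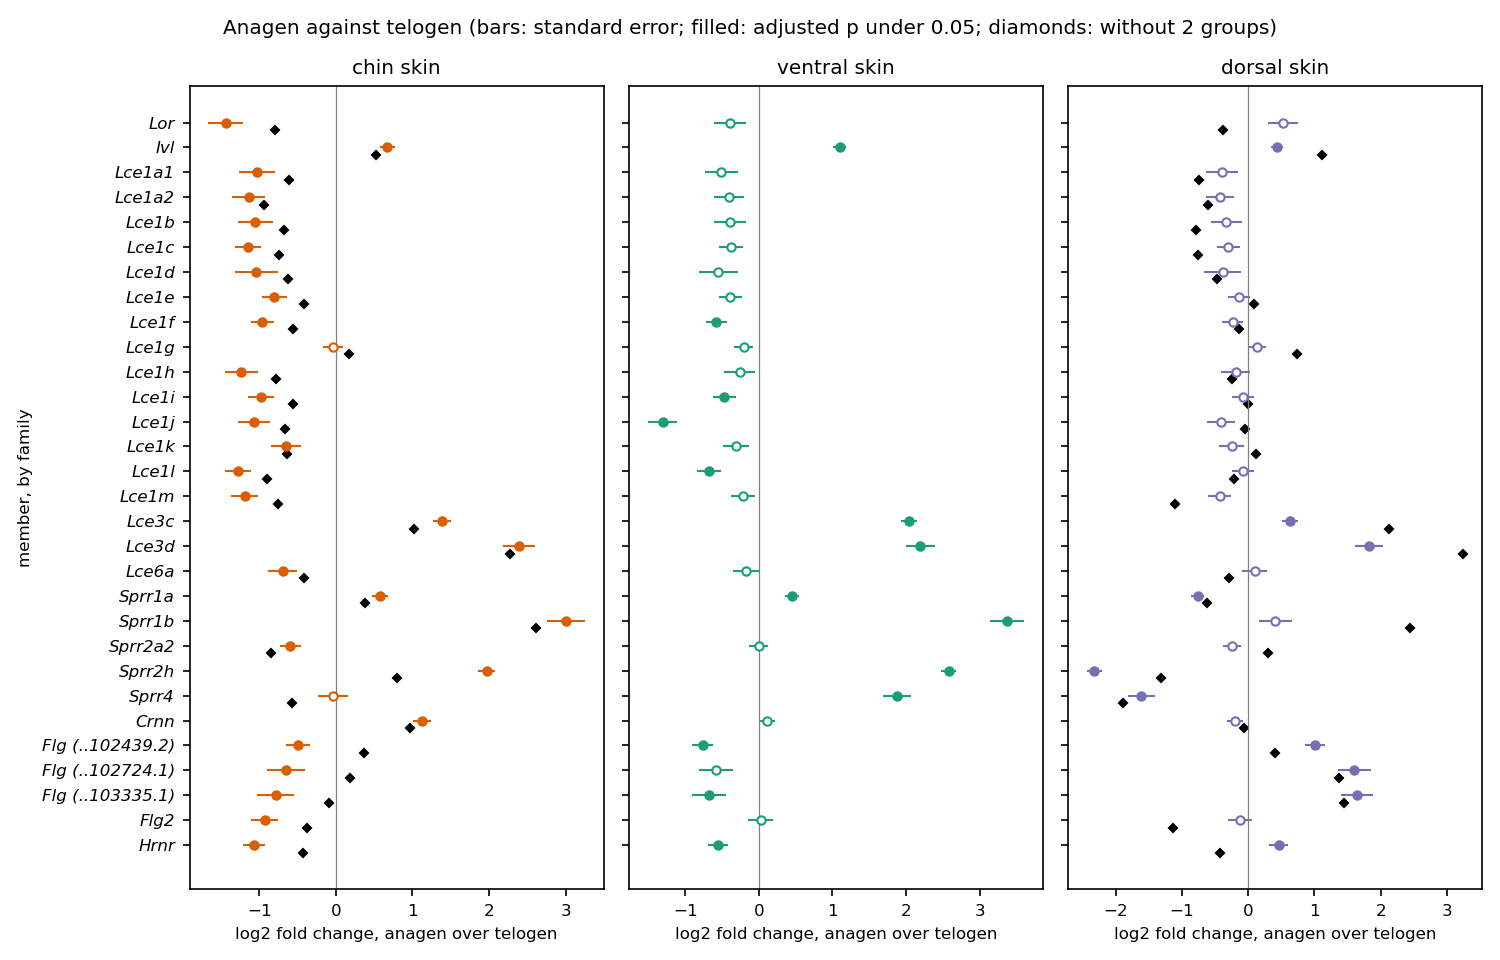
Log2 fold change of anagen over telogen for the 30 members averaging at least 5 FPKM in chin, ventral and dorsal skin, with bars of 1 standard error. Filled points have an adjusted p under 0.05, and diamonds give the value without the chin late anagen and dorsal competent telogen libraries, which moves the dorsal values of Sprr1b, Lce3c, Lce3d and Ivl to the right and of Lor, Flg2 and Hrnr to the left.

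The 2 rests were then compared with each other. In chin skin, Sprr4 was higher at refractory than at competent telogen by 3.25 ± 0.30 (log2, SE, adjusted p = 6.17e-10), Sprr2h by 2.71 ± 0.17 (1.33e-13), Rptn by 1.51 ± 0.11 (3.02e-12) and Sprr1a by 0.82 ± 0.15 (6.75e-05), and these 4 were all the members that rose, of 49 tested (17.8% of all genes). Another 7 fell (18.4% of all genes), led by Flg (ENSMUSG00000102439.2), which fell by 2.38 ± 0.23 (1.18e-09), Flg2, which fell by 1.22 ± 0.26 (0.000477), and Hrnr, which fell by 1.22 ± 0.22 (4.76e-05). Flg2 went from 472 and 368 FPKM to 152, 199 and 188, and Hrnr from 19.1 and 16.9 to 5.96, 9.44 and 6.51, with no overlap. All refractory libraries lay above all competent libraries in 11 members (25.3% of all genes) and below them in 14 (28.6%). No Lce1 gene passed, and Lor stood at -0.01 ± 0.34. Skeletal muscle genes were also higher in these refractory libraries (7 of 7, summed level 11670 to 18900 FPKM against 481 to 520), and their part was not tested.

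Ventral skin showed the same rise of Sprr2h, by 4.69 ± 0.17 (5.66e-19), and Sprr4, by 2.19 ± 0.30 (7.63e-07), joined by Sprr1b at 1.98 ± 0.37 (6.39e-05), Crnn at 1.54 ± 0.17 (3.97e-08), Sprr1a at 1.504 ± 0.15 (3.95e-09) and Lce3c at 1.18 ± 0.17 (2.68e-06). Of the Lce1 genes 6 fell, with Lce1h at -1.56 ± 0.32 (0.000224) and Lce1g at -1.27 ± 0.20 (6.69e-06), as did 3 of the low Flg entries, at -1.77 to -2.18. Flg (ENSMUSG00000102439.2) itself did not pass, at -0.53 ± 0.23 (0.0616). Libraries were separated upward in 11 members (10.4% of all genes) and downward in 16 (37.8%). The counts were 8 higher and 12 lower of 49, against 8.12% and 34.5% of all genes. Here the scaling mattered: the median of ratios moved the median of all genes from -0.22 to 0 and the counts to 10 and 6, and quantile normalization gave 9 and 9. Of the inner root sheath genes 6 of 7 were higher, and their part was not tested.

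In dorsal skin Sprr1b, Lce3c and Sprr2h went the other way from ventral skin. Sprr1b fell by 4.06 ± 0.40 (adjusted p = 1.64e-08) toward refractory telogen, Lce3c fell by 3.00 ± 0.19 (3.58e-12), Lce3d fell by 2.84 ± 0.34 (4.37e-07), Sprr2h fell by 2.00 ± 0.18 (3.36e-09) and Ivl fell by 1.35 ± 0.16 (2.44e-07), while Flg2 was higher by 2.04 ± 0.29 (5.11e-06), Lor by 1.81 ± 0.37 (0.000533), Hrnr by 1.78 ± 0.24 (2.24e-06) and Lce1m by 1.35 ± 0.29 (0.00083). Sprr1b stood at 204 and 197 FPKM in the libraries labelled competent telogen and at 9.99 and 12.4 at refractory telogen. Sprr4, which rose in the other domains, stood at 180 and 199 against 254 and 303 FPKM and did not pass, at 0.55 ± 0.33 (0.26). Suprabasal keratins (3 of 4) and basal keratinocyte genes (6 of 6) were higher and inner root sheath (4 of 7) and adipocyte genes (5 of 5) lower, and their part was not tested. The counts were 6 higher and 12 lower, against 10.8% and 11.3% of all genes, and libraries were separated upward in 16 members and downward in 21 (32.5% and 32.0% of all genes). This comparison cannot be made without the doubtful dorsal libraries.

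Averaged over the stages, the most even difference between domains was in the Lce1 genes, which were lowest in dorsal skin. Dorsal skin was below chin skin for all 14, from -0.82 ± 0.11 for Lce1m (adjusted p = 2.6e-06) to -1.82 ± 0.13 for Lce1j (5.15e-11) on the log2 scale, and below ventral skin for 13 of 14, down to -1.32 ± 0.13 for Lce1h (7e-09). Both counts were the same without the doubtful groups and under TPM, median-of-ratios and quantile scaling. In the domain averages here and below, leaving out a doubtful group also dropped its stage from the other domain compared, so those values cover fewer stages. Ventral skin was below chin skin for 10 of the 14 (9 without the doubtful groups, 8 to 10 under the scalings), led by Lce1j at -0.99 ± 0.13 (2.02e-06). For Lor, dorsal skin differed from ventral skin by -1.35 ± 0.14 (1.18e-08) and from chin skin by -0.81 ± 0.14 (9.03e-05), or by -1.04 ± 0.16 (9.17e-06) and -0.89 ± 0.18 (0.000441) without the doubtful groups. Of the suprabasal keratins 2 of 4, and of the basal keratinocyte genes 5 of 6, were also below chin skin in dorsal skin. Their part was not tested. The domains were not apart at every single stage. At late anagen the summed Lce1 level was 808 to 857 FPKM in dorsal, 724.5 to 858 in chin (doubtful) and 846 to 900 in ventral skin. At refractory telogen it was 1247 to 1319 in dorsal and 1108 to 2193 in ventral skin. At the other stages all dorsal libraries lay below those of chin and ventral skin.

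Of 49 members, 7 were higher and 25 lower in dorsal than in chin skin, against 9.52% and 17.3% of all genes. For dorsal against ventral skin the counts were 5 and 23 (17.6% and 19.9%), and for ventral against chin skin 6 and 14 (9.13% and 14.5%). Without the doubtful groups they were 4 and 25 (22.9% and 13.2%) and 3 and 13 (9.05% and 18%). The 3 comparisons share libraries. Scaling by the median of ratios gave 7 and 24 for dorsal against chin skin, and quantile normalization 7 and 23, and 7 and 12 for ventral against chin skin. The members that were higher in dorsal skin depended on the doubtful groups: without them 1 of 49 was higher than in chin skin and 25 lower (11.1% and 15.7% of all genes), and Sprr2h turned from 0.29 ± 0.07 (0.00229) to -0.60 ± 0.09 (1.07e-05). Against ventral skin Lce3c turned from 0.27 ± 0.07 (0.00414) to -0.39 ± 0.08 (0.00044). Sprr1a differed by -0.52 ± 0.06 (1.37e-07) between dorsal and ventral skin and by -0.87 ± 0.07 (2.51e-10) without them. Sprr4 was higher in ventral than in chin skin by 0.64 ± 0.12 (0.000317), and so was Sprr2h, by 0.62 ± 0.07 (8.99e-08), or by 0.63 ± 0.14 and 0.92 ± 0.08 without them.

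At single stages, 41 of 49 members differed among the domains in competent telogen (54.0% of all genes) and 23 in refractory telogen (42.2%), by limma's F-test. In growing skin 27 differed in early anagen (51.6%), 29 in mid anagen (38.1%) and 23 in late anagen (20.8%), and in catagen 29 did (42.9%). Without the doubtful groups, 14 differed at competent telogen (22.0% of all genes), between chin and ventral skin only, and 4 at late anagen (2.69%), between ventral and dorsal skin only. Over the 6 stages, 41 members differed in chin skin (66.2%), 41 in ventral skin (70.2%) and 38 in dorsal skin (68.5%). The course over the stages differed between domains for 42 of 49 members, where 73.3% of all genes did, so the members were not marked out by this count.

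Other genes of cornification did not move as a block with the members. Of the 3 transglutaminases that cross-link the envelope, Tgm3, the enzyme of the inner root sheath and hair, rose in chin anagen by 1.80 ± 0.17 (adjusted p = 1.76e-09) and Tgm1 by 0.30 ± 0.08 (0.00644), while Tgm5, an epidermal enzyme, fell by 1.47 ± 0.11 (4.23e-11). In ventral skin only Tgm3 rose, by 1.03 ± 0.16 (1.73e-05). Of 12 genes that make the lipid envelope and barrier lipids, 2 rose and 7 fell in chin anagen, among them the lipoxygenase Alox12b by 1.35 ± 0.14 (1.64e-08) and the fatty acid elongase Elovl4 by 1.03 ± 0.10 (6.59e-09). In ventral skin 1 rose and 2 fell, and in dorsal skin 7 rose and 1 fell. Of 18 other tested genes of the epidermal differentiation complex, 7 rose and 6 fell in chin anagen, with the inner root sheath protein trichohyalin (Tchh) up by 1.11 ± 0.11 (7.68e-09) and Kprp down by 0.82 ± 0.18 (0.000746). Of 9 desmosomal and scaffold genes, 1 rose and 1 fell. Of 18 transcriptional regulators of epidermal differentiation, 4 rose and 6 fell, Klf4 by 0.55 ± 0.08 (3.54e-06) and Grhl3 by 0.62 ± 0.14 (0.000702).

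Ear skin, which the study treats as a hyper-refractory domain, was compared with the dorsal competent telogen libraries by limma over 19299 genes of the ear table. It carried far more of the Lce1 and filaggrin-type RNAs and less Sprr1a, Sprr2h, Ivl and Crnn. Lce1g stood at 495 and 541 FPKM in ear skin and at 8.51 and 8.23 in dorsal skin, a difference of 5.79 ± 0.07 (log2, SE, adjusted p = 5.51e-08). Lce1h stood at 377 and 426 against 7.29 and 8.68 (5.49 ± 0.10, 2.94e-07) and Lce1j at 496 and 481 against 10.96 and 10.89 (5.36 ± 0.06, 4.09e-08). The ear libraries of these 3 genes lay far above the dorsal ones, and all 14 Lce1 genes were higher, their summed level at 8725 and 8844 FPKM against 742 and 755.

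Loricrin stood at 2739 and 2153 FPKM in ear skin against 200 and 189 (3.64 ± 0.14, adjusted p = 7.46e-06), and Hrnr at 71.6 and 70.5 against 1.33 and 1.36 (4.94 ± 0.08, 1.35e-07). Of the 11 fused S100 entries 9 were higher, namely every entry of the single gene Flg, Flg2 and Hrnr. Flg (ENSMUSG00000102439.2) stood at 412 and 432 against 65.9 and 69.2 (2.63 ± 0.06, 8.87e-07). Rptn was not higher, at 3.77 and 2.86 against 4.5 and 4.05. Lce3e, Sprr2b and 3 Flg entries were listed at 0 in both dorsal libraries and at 1.62 to 12.2 FPKM in ear skin, which gives no fold. In the other direction, Crnn stood at 3.2 and 2.86 FPKM in ear skin against 356 and 358 (-6.47 ± 0.09, 8.61e-08) and Sprr2h at 14.29 and 13.96 against 393 and 392 (-4.70 ± 0.06, 6.35e-08). Sprr1a stood at 701 and 709 against 5777 and 5641 (-3.02 ± 0.17, 2.88e-05), and Ivl at 54.2 and 48.8 against 207 and 200 (-1.96 ± 0.07, 6.39e-06). None of these genes overlapped between the tissues, and ear libraries lay all above the dorsal ones in 36 members and all below in 10 (60.0% and 22.3% of all genes).

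Of 47 members tested, 36 were higher in ear skin and 8 lower, against 44.7% and 14.6% of all genes, with a median log2 difference of 2.69 against 0.33 over all genes. Scaling by the median of ratios took the median of all genes to 0.02 and gave 33 and 10, and quantile normalization gave 35 and 10, with 14 of 14 Lce1 genes higher under each. Since the dorsal libraries here are among the doubtful ones, ear skin was also set against dorsal refractory telogen. Then 39 members were higher and 5 lower, where 44.5% of all genes were higher and 57.5% differed in either direction. Lor differed by 1.82 ± 0.32 (adjusted p = 0.00363), Lce1g by 7.02 ± 0.08 (5.67e-08), Crnn by -6.203 ± 0.09 (1.81e-07), Sprr2h by -2.70 ± 0.07 (1.33e-06) and Sprr1a by -2.74 ± 0.17 (5.04e-05). Sprr1b changed direction, from -1.30 ± 0.06 (1.57e-05) to 2.76 ± 0.11 (7.61e-06), Flg2 lost its difference, from 2.01 ± 0.07 (4.29e-06) to -0.03 ± 0.09 (0.815), and Lce3c went from 0.50 ± 0.06 to 3.497 ± 0.07. The refractory libraries come from the skin table and were joined to the ear table as deposited, where the 2 dorsal libraries present in both tables had identical values.

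**Figure D5:**
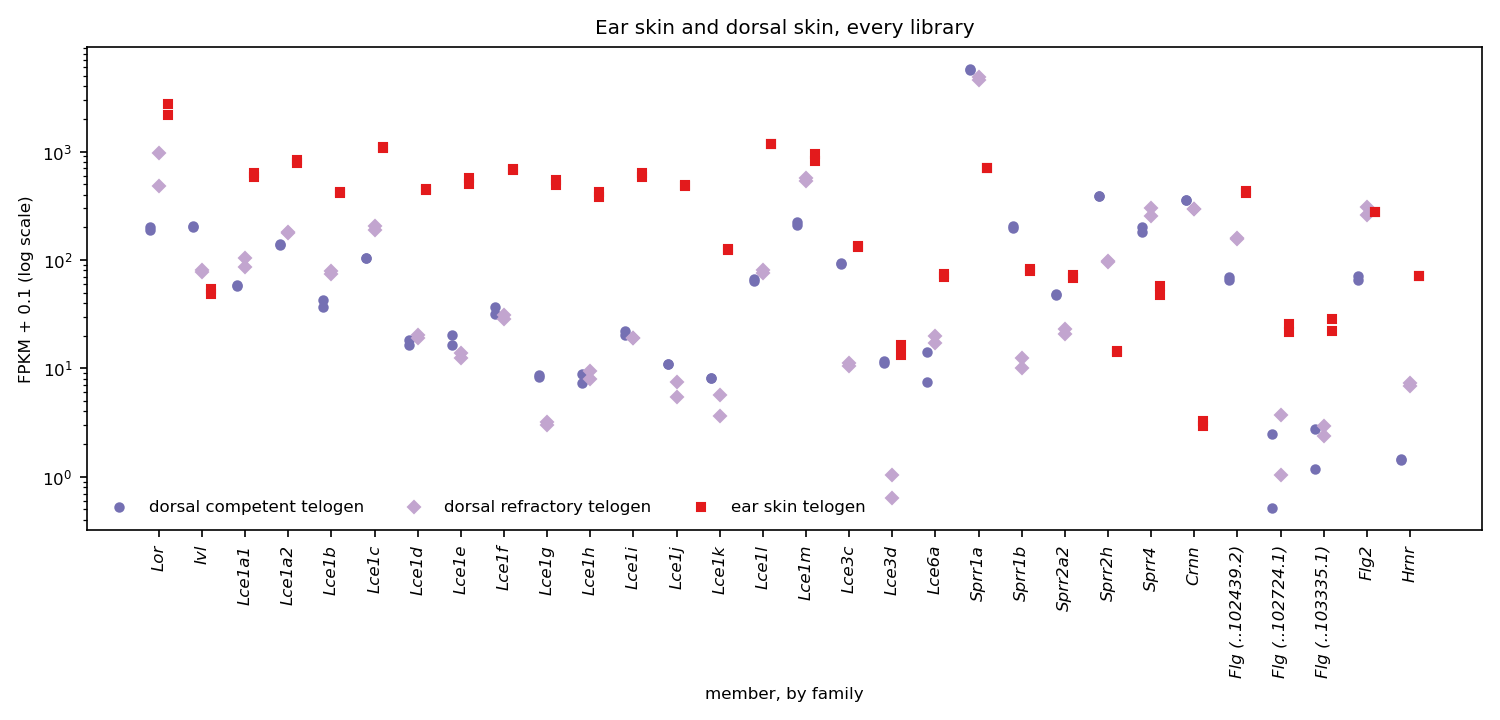
FPKM + 0.1 (log axis) of the 30 members averaging at least 5 FPKM in skin, in the 2 ear skin libraries (red squares), the 2 dorsal competent telogen libraries (purple circles) and the 2 dorsal refractory telogen libraries (light purple diamonds). The ear squares lie above both dorsal groups for Lor, every Lce1 gene and Hrnr, and below both for Ivl, Sprr1a, Sprr2h, Sprr4 and Crnn.

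Ear skin differed from dorsal skin in its marker genes as well. The inner root sheath list summed to 133 to 144 FPKM against 23320 to 23650, with 7 of 7 genes lower, and the suprabasal keratins to 8985 to 9324 against 318 to 326, mostly Krt2 at 6436 and 6849 FPKM. Of the 12 lipid genes 9 were higher, Alox12b by 3.18 ± 0.09 (1.58e-06), Aloxe3 by 2.96 ± 0.14 (1.35e-05) and Elovl4 by 2.82 ± 0.14 (1.75e-05) among them. Tgm3 differed by -1.201 ± 0.09 (0.0001). The part of these in the members' difference was not tested.

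The cartilage/muscle complex held almost none of the envelope RNAs. Lce1, Lce3, Lce6, Sprr4, Ivl, Flg and Hrnr were listed at 0 in all 3 libraries, Lor at 0.26, 0.28 and 0.06 FPKM, Crnn at 0.06, 0.1 and 0.2 and Sprr1a at 0.13, 0 and 0.46. Of 47 members, 46 were lower than in ear skin and none higher (38.5% and 28.0% of all genes), and 37 were lower than in dorsal skin and none higher (28.3% and 42.8%). The tissue carried its own markers, chondrocyte genes at a summed 317 to 365 FPKM and skeletal muscle genes at 17070 to 19780, against 0.82 to 0.91 and 1203 to 1207 in ear skin.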

How the data were processed

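The authors aligned paired-end SMART-seq2 reads of whole tissue to mm10 with the GENCODE vM8 annotation and quantified them with RSEM 1.2.25, and they state that samples were corrected for batch effects without naming the batches, so no batch could be tested. The deposited values are FPKM per gene with 2 decimals, used as given, and no counts were used. Members and gene lists were chosen with earlier results of these data known. Genes reaching 0.5 FPKM in 2 or more libraries entered the test on log2(FPKM + 1) with limma 3.58.1 (variance trend, R 4.3.3), two-sided, with Benjamini-Hochberg adjustment at 0.05, all 43 skin libraries as 18 groups or the 7 ear-table libraries as 3, with no covariate. Adding 1 understates the change of low genes. The test and the depth estimate were tested on simulated data. Named members were the highest of each family, the highest 2 of the fused S100 genes, and for each comparison up to 3 per direction that passed without overlap between libraries. Hrnr, Flg2, Sprr1b and Lce3d were added where the 2 courses are described, after their values were seen. Replicates sharing a number were not alike (correlation of deviations -0.174 to 0.162), so no pairing was used. The 2 dorsal libraries are identical in both tables. Alternatives were other pseudocounts, filters, scalings, a replicate block, leaving out each library and, added after the data were seen, leaving out the chin late anagen and dorsal competent telogen libraries and using dorsal refractory telogen for the ear.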

Additional observations from a re-analysis of the deposited data

Results flagged for a closer look

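The difference between domains in the course over the 6 stages was tested as an interaction of domain and stage in limma's F-test, and it picked out 42 of the 49 tested members, against 73.3% of all genes. Adjusted p was 1.77e-21 for Sprr2h, 4.02e-15 for Lce3c, 8.97e-13 for Sprr4, 4.79e-12 for Flg (ENSMUSG00000102439.2), 2.75e-10 for Sprr1a, 8.92e-10 for Crnn, 4.84e-07 for Ivl, 2.7e-06 for Lor, 4.45e-05 for Lce1m and 0.0118 for Lce6a. For Sprr2h, anagen was above the mean of both telogens by 1.97 ± 0.11 (log2, SE) in chin and 2.58 ± 0.11 in ventral skin. In dorsal skin it was below that mean by 2.32 ± 0.11. Without the dorsal competent telogen libraries it was below by 1.32 ± 0.15, with refractory telogen alone as rest. The chin and ventral values have another rest, which includes competent telogen libraries at 2.69 to 6.96 FPKM. Anagen was not compared with refractory telogen alone in those domains, so the sign was not compared on an equal rest. In each domain the early anagen libraries lay below refractory telogen and the mid anagen libraries above. Chin refractory telogen stood at 40.9 to 59.5 FPKM, against 7.8 and 8.73 at early and 113 and 127 at mid anagen. Ventral refractory telogen stood at 119 and 125 FPKM, against 31.8 to 38.3 at early and 380 and 446 at mid anagen. The interaction needs all 18 groups and was not refitted without the 2 doubtful ones.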

How the results depend on the processing

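The counts of called members changed by more than 1.5 times in 1 of 838 refits that left out a single library and in 2 of 172 other refits. These counts add both directions, so a shift between them does not show. Under the median of ratios, dorsal anagen against telogen went from 12 higher and 5 lower to 9 and 12. Refractory against competent telogen of ventral skin went from 8 and 12 to 10 and 6. Without the dorsal competent telogen and chin late anagen libraries, 14 members instead of 41 differed among the domains at competent telogen and 4 instead of 23 at late anagen. Without chin late anagen replicate 1 the late anagen count was 15, and over all libraries left out in turn it ran from 15 to 25. The other counts ran from 33 to 37 for anagen against telogen in chin, 17 to 23 in ventral and 14 to 19 in dorsal skin, from 15 to 24, 29 to 32 and 27 to 29 for ventral against chin, dorsal against chin and dorsal against ventral skin, and from 32 to 43 for ear against dorsal skin. In the skin comparisons 3 named values changed sign, all without the 2 doubtful groups: Sprr2h in dorsal against chin skin (-0.60), Lce3c in dorsal against ventral skin (-0.39) and Flg (ENSMUSG00000102439.2) in chin anagen against telogen (0.37, adjusted p = 0.111). In ear against dorsal skin, using dorsal refractory telogen turned Sprr1b from -1.30 to 2.76 and took Flg2 from 2.01 to -0.03. The cause was not tested. Of single named values, 27 of 3513 refits without 1 library and 17 of 853 others lost their call.

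No sign was found that replicate numbers pair the libraries. With such small groups this cannot exclude a shared mouse or batch. A fit with the replicate number as a block gave 41 members with an interaction of domain and stage, 18 called for dorsal anagen against telogen, 26 among the domains at refractory telogen and 35 of 35 tested for the cartilage/muscle complex against dorsal skin, and it moved no count by over 1.5 times. Correlations of the deviations from the group means, between libraries of different groups, ran from -0.174 to 0.162 (median 0.003) for the same number and from -0.233 to 0.233 for other numbers. No paired fit was made with the ear skin libraries, whose columns are numbered apart from their samples. Depth limits the low members: 21 of 51 averaged under 5 FPKM.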
